A study of Mus musculus with 8 samples.

Results

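The genes examined here encode the C/EBP transcription factors and 2 further regulators of myeloid and mast cell genes. The list named 7 genes: Cebpa, Cebpb, Cebpd, Cebpe, Cebpg, Spi1 and Mitf. A probe belonged to the set if the gene name in the array files was 1 of these or an older alias, and Spi1 was found there as Sfpi1. By this rule 11 of 41174 probes were members and covered 6 of the 7 genes, out of 28599 distinct names in the files; none carried the name Cebpe, whose level was not analysed here. A probe was tested where, in some comparison, both arrays had it well above background for the same RNA. All 11 member probes were among the 29464 tested ones.

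The samples were mouse bone marrow-derived pro-B and pre-B cells lacking Pax5, which fixes progenitors in the B lineage, grown with IL-7 on gamma-irradiated OP9 stromal cells. Clone 4 had received a human Pax5 transgene (huPax5) behind a doxycycline-dependent (TRE) promoter by retrovirus, together with the transactivator rtTA, with selection by puromycin for huPax5 and histidinol for rtTA. RNA came from clone 4 given 10, 300 or 1000 ng/ml doxycycline, and from Pax5sz2 cells, which carried rtTA alone and were labelled as doxycycline-treated without a dose. The common control was RNA of untreated clone 4 (0 ng/ml), against which each RNA ran on 2 two-colour Agilent arrays with swapped dyes. All cells, the control included, thus lacked mouse Pax5, and clone 4 is named as a single clone. Pax5sz2 differs from the control by cells, transgene and doxycycline at once, and these cannot be told apart. Ratios below are log2 of the named RNA over the control, so that positive values mean higher in the named RNA. The first array of a pair has the named RNA in Cy5 and the second has it in Cy3. A comparison held 1 RNA sample on 2 technical arrays and had no test of its own. Probes were counted as past the size when both arrays lay at least 2-fold (log2 of 1) from the control in the same direction. In RNA from a mixed culture, fewer cells of a type and less RNA per cell cannot be told apart.

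The C/EBP proteins are basic leucine zipper factors that bind DNA as dimers with each other and with related zipper proteins. C/EBPα drives granulocyte and monocyte differentiation, and C/EBPβ and C/EBPδ act in inflammatory, macrophage and adipocyte programmes. C/EBPγ lacks a strong activation domain and serves as a dimer partner, also in stress responses. PU.1, the product of Spi1, is an Ets factor needed for both myeloid and lymphoid development, and acts with C/EBPα on myeloid promoters. MITF is a basic helix-loop-helix zipper factor of melanocytes, mast cells and osteoclasts. Pax5 in B cells represses genes of other lineages, and C/EBPα and C/EBPβ can redirect B-lineage cells to macrophages.

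The 1000 ng/ml pair stood apart from the other 6 arrays. It was scanned in an earlier batch, on rehybridised slides and under an older image extraction protocol, and its probes were well above background in 40.4% to 45.1% of cases against 59.5% to 75.5% elsewhere. These shares rest on unlike criteria, since the scanner software's mark for a probe well above background used a multiplier of 2.6 on this pair, with no detrending, and of 13 with detrending on the other 6 arrays. This holds for every statement below on probes well above background. The ratios of the pair also ran against those at 300 ng/ml in the same dye orientation, with Pearson's r of -0.36 where the named RNA was in Cy5 and -0.47 where it was in Cy3. The direction of the 1000 ng/ml pair is therefore not settled, and its values are given as labelled and, where a comparison uses them, with the sign turned. Dose and scan batch cannot be told apart there. The 2 arrays of a pair correlated at 0.83, 0.64, 0.81 and 0.92 in the order 10, 300 and 1000 ng/ml and Pax5sz2. Mouse Pax5 probes do not check the labels, since the cells are Pax5-deficient and the transgene is human. The probe A_52_P429826 was at 2.66, 2.36, 0.11 and 3.02 in that order, so Pax5sz2, which has no huPax5, was among the high ones, and the other Pax5 probe, A_51_P122855, lay between -0.45 and 0.23.

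Few member probes were past the size. At 10 ng/ml 2 of 11 were, 1 higher (Cebpb) and 1 lower (Mitf), beside 1.69% of all tested probes (0.503% higher and 1.19% lower). At 300 ng/ml 1 was, the same Mitf probe, lower, beside 3.4% of all (2.3% lower). At 1000 ng/ml none was, in either direction, beside 2.15% (1.63% higher and 0.521% lower). In Pax5sz2 1 was, a Cebpg probe, higher, beside 5.13% (1.89% higher and 3.24% lower). The median ratio over the 11 probes was 0.34, 0.098, 0.031 and -0.031, where all tested probes had medians between -0.0077 and 0.0087. The probes of 1 gene share their target and are not independent of each other.

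**Figure D1:**
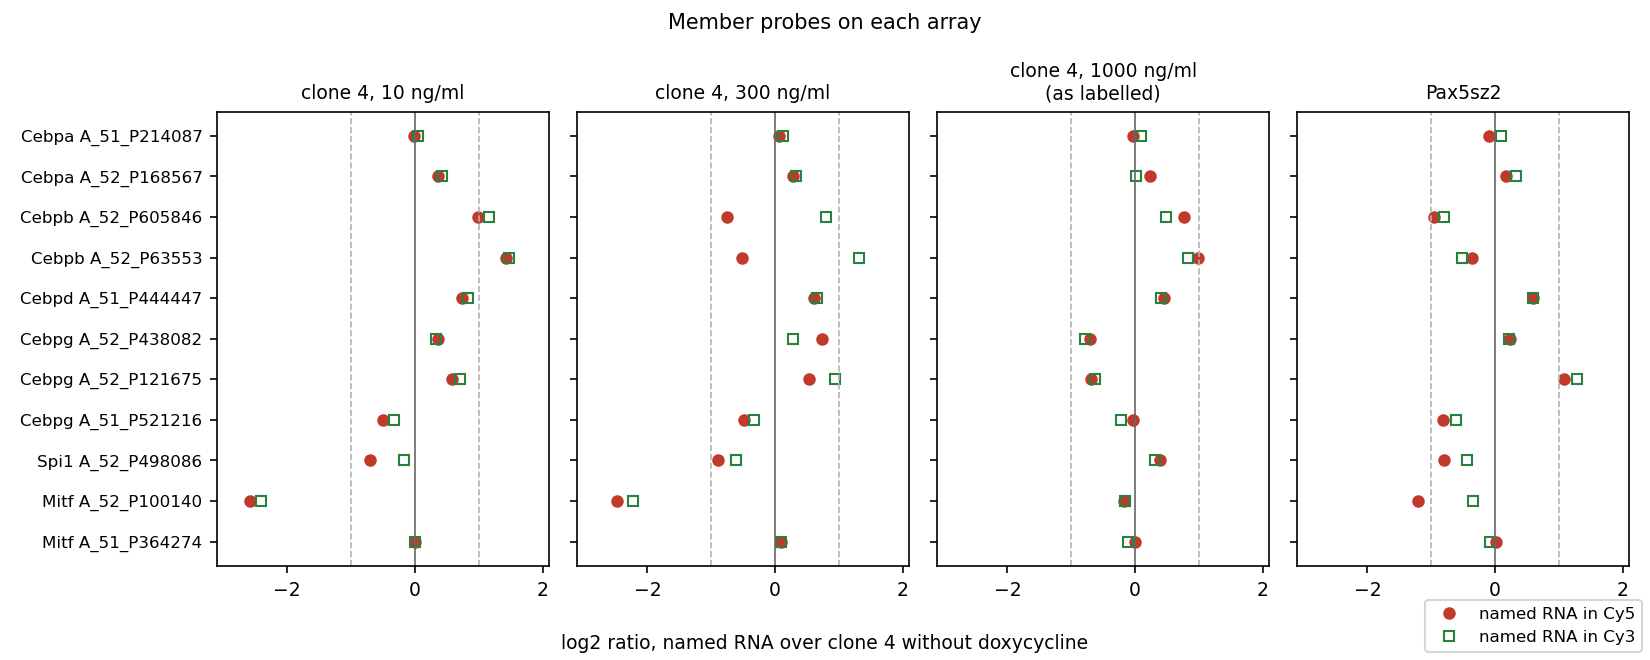
Log2 ratio of the named RNA over clone 4 without doxycycline for the 11 member probes (rows), with 1 panel per comparison. Filled circles are arrays with the named RNA in Cy5 and open squares arrays with it in Cy3; dashed lines mark 2-fold. Mitf A_52_P100140 lies below -2 on all 4 arrays of 10 and 300 ng/ml, and the 2 Cebpb arrays of 300 ng/ml lie on opposite sides of 0.

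Cebpa, the granulocyte and monocyte regulator, was not past the size in any comparison. Its probe A_51_P214087 (mm8 chr7:34829102-34829161, plus strand) was at -0.021 and 0.044 at 10 ng/ml and at 0.069 and 0.13 at 300 ng/ml. It was at -0.031 and 0.093 at 1000 ng/ml and at -0.092 and 0.097 in Pax5sz2. These values straddled 0, and the probe was not well above background in either RNA at 1000 ng/ml. The second probe, A_52_P168567 (mm8 chr7:34830258-34830317, plus strand), was at 0.37 and 0.42, 0.29 and 0.33, 0.24 and 0.016, and 0.17 and 0.33 in the same order. All 8 values were above 0, although at 1000 ng/ml neither RNA was well above background. The largest mean, at 10 ng/ml, was 0.39 ± 0.036 (SD, n = 2 arrays), or 1.31-fold. In the scanner software's processed signals that mean was 0.77. Control levels of this probe were close on all arrays, from 6.77 to 7.11 on the log2 intensity scale.

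Cebpb, the factor of inflammatory and macrophage genes, had the largest positive ratios of the set at 10 ng/ml. Probe A_52_P63553 (mm8 chr2:167381552-167381610, plus strand) was at 1.42 and 1.48 there, a mean of 1.45 ± 0.036 (SD, n = 2 arrays) or 2.73-fold. At 300 ng/ml the first array gave -0.52 and the second 1.32. At 1000 ng/ml, as labelled, it was at 0.98 and 0.84, and in Pax5sz2 at -0.36 and -0.52. The 10 ng/ml arrays were thus the highest and the Pax5sz2 arrays both below 0. The other probe, A_52_P605846 (mm8 chr2:167381014-167381073, plus strand), lies upstream of it in the same gene. Its values were 0.99 and 1.15 at 10 ng/ml, -0.75 and 0.80 at 300 ng/ml, 0.77 and 0.49 at 1000 ng/ml, and -0.95 and -0.80 in Pax5sz2. It missed the size at 10 ng/ml by its first array, and its mean there was 1.07 ± 0.11. Both probes had the same sign on each of the 8 arrays. In the scanner software's processed signals A_52_P605846 passed 2-fold on both arrays at 10 ng/ml (1.14 and 1.37) and in Pax5sz2 (-1.27 and -1.11).

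The level of Cebpb in the control RNA was steadier than in the named RNAs. For A_52_P63553 the control level lay between 10.92 and 11.46 on the 10 and 300 ng/ml arrays, at 11.30 and 11.22 on the Pax5sz2 arrays and at 9.80 and 9.92 on the 1000 ng/ml arrays. The named level was 12.89 and 12.76 at 10 ng/ml, 10.82 and 12.23 at 300 ng/ml, 10.78 and 10.75 at 1000 ng/ml, and 10.93 and 10.70 in Pax5sz2. The disagreement at 300 ng/ml thus lay mostly in the treated channel, which was low on the first array. The gap between those 2 arrays, 1.84 for this probe and 1.55 for A_52_P605846, was reached by 1.56% and 3.35% of all tested probes. The first 300 ng/ml array also had the most spots marked as outliers, 295 against 37 to 115 on the others. Neither Cebpb spot was among those left out, since keeping them gave the same values. In the processed signals of the scanner software that array read 0.80 for A_52_P63553 and -0.23 for A_52_P605846. The probe past the size at 10 ng/ml thus changed its side of 0 at 300 ng/ml with the scaling, and no direction is given for Cebpb at that dose.

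**Figure D2:**
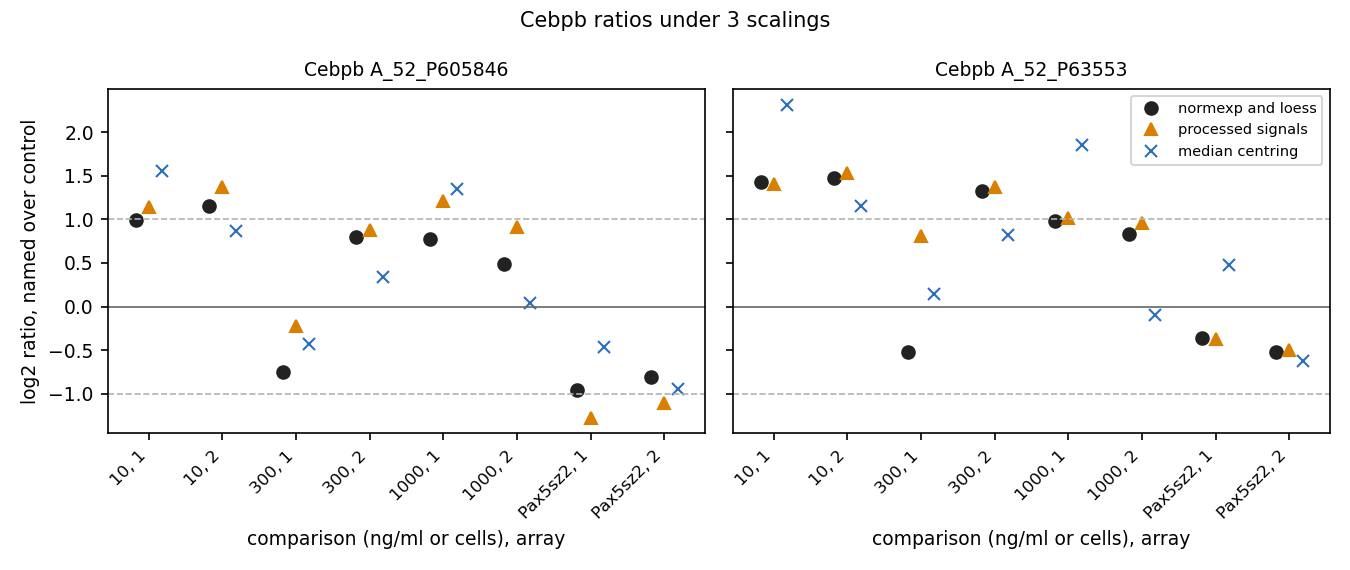
Log2 ratio of the 2 Cebpb probes on each of the 8 arrays under 3 scalings: normexp with loess (circles), the scanner software's processed signals (triangles) and median centring (crosses). At 10 ng/ml all values are above 0.8, and on the first 300 ng/ml array A_52_P63553 moves from -0.52 to 0.80 between the first and the second scaling.

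The bases before the Cebpb start are shown because Cebpb had the highest ratio at 10 ng/ml. RefSeq windows of 250 bases before the annotated start (GRCm38.p6) were held for 4 of the genes and 6 starts, and coordinates are not compared with those of the probes, which are on mm8. The windows were searched on both strands for the CCAAT box by its letters, the C/EBP site TTGCNNAA, the cyclic AMP response element TGACGTCA and the PU.1 core GAGGAA. E-boxes of the kind that MITF binds were searched as CACGTG and, separately, as CATGTG. Matches are in capitals. A match describes the letters only. The Cebpb window held no match and has a GC content of 81.6%. It lies on the plus strand at chr2:167688665-167688914.
Cebpb: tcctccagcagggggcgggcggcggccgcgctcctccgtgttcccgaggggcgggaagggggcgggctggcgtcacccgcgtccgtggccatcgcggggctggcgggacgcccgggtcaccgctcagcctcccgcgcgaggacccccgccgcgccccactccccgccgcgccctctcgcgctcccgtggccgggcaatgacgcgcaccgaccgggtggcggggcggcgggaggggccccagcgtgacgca

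Cebpd, which like Cebpb responds to inflammatory and adipogenic signals, was higher in all 4 named RNAs as labelled. Probe A_51_P444447 (mm8 chr16:15801944-15802003, plus strand) was at 0.74 and 0.83 at 10 ng/ml and at 0.61 and 0.66 at 300 ng/ml. It was at 0.45 and 0.41 at 1000 ng/ml as labelled, and at 0.59 and 0.60 in Pax5sz2. All 8 arrays were above 0 and none reached 1, so the gene was not past the size anywhere. The means were 0.79 ± 0.060, 0.64 ± 0.034, 0.43 ± 0.032 and 0.59 ± 0.010 (SD, n = 2 arrays each), or 1.73-, 1.55-, 1.35- and 1.51-fold. With the 1000 ng/ml sign turned that comparison reads -0.43. The order of the doses, 10 above 300 above 1000 ng/ml, exceeded the gap between arrays of a pair, but the spread between RNA samples of 1 dose was not measured. The mean of Pax5sz2 lay below that of 300 ng/ml by less than the gap of 0.049 between the 300 ng/ml arrays.

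Cebpg, the dimer partner of the family, had 3 probes that disagreed with each other. From 5′ to 3′ along the gene on the minus strand of mm8 chromosome 7 they are A_52_P438082 (34759218 to 34759277), A_52_P121675 (34756492 to 34756551) and A_51_P521216 (34755658 to 34755717). The middle probe was at 0.59 and 0.71 at 10 ng/ml, 0.54 and 0.95 at 300 ng/ml, -0.68 and -0.62 at 1000 ng/ml, and 1.07 and 1.28 in Pax5sz2. Its mean in Pax5sz2 was 1.18 ± 0.15, or 2.26-fold, and it was the member probe past the size there. The 1000 ng/ml arrays lay apart from the other 6, below 0 as labelled and at 0.65 in the mean with the sign turned. The 5′ probe followed the same signs with smaller values, at 0.36 and 0.32, 0.74 and 0.28, -0.70 and -0.79, and 0.24 and 0.22. In the processed signals it was at -0.014 on the first 300 ng/ml array.

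The 3′ probe of Cebpg lay on the other side of 0. A_51_P521216 was at -0.50 and -0.33 at 10 ng/ml, -0.49 and -0.32 at 300 ng/ml, -0.029 and -0.22 at 1000 ng/ml, and -0.82 and -0.62 in Pax5sz2. All 8 arrays were below 0, and on the 6 arrays of 10 and 300 ng/ml and Pax5sz2 it opposed both other probes. Pax5sz2 had its lowest value and the middle probe's highest. In the processed signals A_51_P521216 was at -1.13 and -1.10 in Pax5sz2, past 2-fold on both arrays. All 3 probes were well above background in both RNAs on all 8 arrays. The named level of the 3′ probe was 6.87 and 6.90 in Pax5sz2 and 7.46 to 7.88 at the 3 doses. No direction is therefore given for the gene as a whole.

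**Figure D3:**
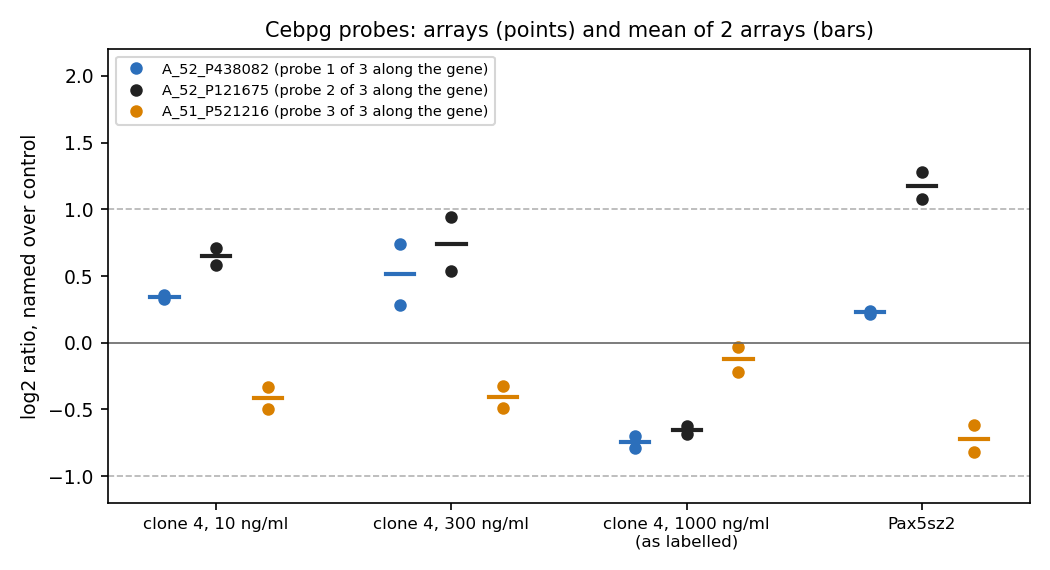
Log2 ratio of the 3 Cebpg probes in the 4 comparisons; points are the 2 arrays of a pair and bars their mean, and dashed lines mark 2-fold. In Pax5sz2 the middle probe has a mean of 1.18 and the 3′ probe a mean of -0.72.

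The window before the Cebpg start is shown because a probe of the gene was past the size in Pax5sz2. The window held the CCAAT box in 2 places, beginning 89 and 28 bases before the start and written on this strand as ATTGG. Such a box was found in 33.85% of the 32851 windows of this length. The window is on the minus strand at chr7:35056567-35056816.
Cebpg: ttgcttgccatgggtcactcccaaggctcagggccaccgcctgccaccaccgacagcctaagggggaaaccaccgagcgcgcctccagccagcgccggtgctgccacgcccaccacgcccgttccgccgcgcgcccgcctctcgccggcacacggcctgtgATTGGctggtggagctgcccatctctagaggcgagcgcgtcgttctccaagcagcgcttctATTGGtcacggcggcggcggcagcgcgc

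Spi1, which encodes PU.1, was lower in 3 of the 4 named RNAs and missed the size in each. Its only probe, A_52_P498086 (Sfpi1 in the files), is placed at mm8 chr2:90900347-90914134 on the plus strand, a span of 13788 bases for a single probe, so that it crosses at least 1 intron. It was at -0.71 and -0.18 at 10 ng/ml, -0.90 and -0.60 at 300 ng/ml, 0.40 and 0.32 at 1000 ng/ml, and -0.80 and -0.45 in Pax5sz2. The 1000 ng/ml arrays, as labelled, were above 0 and did not overlap the other 6. With the sign turned they would lie at -0.36 in the mean, within the range of the others. Control levels lay between 7.26 and 7.61 on all 8 arrays, whereas named levels ranged from 6.54 in Pax5sz2 to 7.91 at 1000 ng/ml. The means were -0.44 ± 0.38, -0.75 ± 0.21, 0.36 ± 0.057 and -0.62 ± 0.25 (SD, n = 2 arrays each). The gap between the 10 ng/ml arrays, 0.53, was reached by 2.89% of tested probes. In the processed signals the arrays read -1.17 and -0.18 at 10 ng/ml, -1.85 and -0.96 at 300 ng/ml, and -1.40 and -0.69 in Pax5sz2, so that in each pair only the first passed 2-fold.

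Mitf, the melanocyte and mast cell regulator, had the lowest ratios of the set, on 1 of its 2 probes. A_52_P100140 (mm8 chr6:97971656-97975912, plus strand, spanning 4257 bases and so crossing at least 1 intron) was at -2.58 and -2.41 at 10 ng/ml and at -2.47 and -2.22 at 300 ng/ml. Its means there were -2.49 ± 0.13 and -2.35 ± 0.18, or 5.63- and 5.09-fold lower than the control. At 1000 ng/ml it was at -0.17 and -0.15, and in Pax5sz2 at -1.21 and -0.34. The 10 and 300 ng/ml arrays thus stood below all the others. In Pax5sz2 the named RNA was not well above background on either array, and the control was on the first array alone, so that the second array measured neither RNA and the ratio rests on 1 array. In the processed signals the Pax5sz2 arrays read -4.88 and -2.51.

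The level of this Mitf probe in the control RNA differed between arrays. The control RNA, labelled the same on every array, was at 11.32 and 10.03 on the 10 ng/ml arrays and at 10.74 and 10.45 on the 300 ng/ml arrays. It was at 7.01 and 7.38 on the 1000 ng/ml arrays and at 6.96 and 6.40 on the Pax5sz2 arrays. The control arrays therefore fell into groups of 4 that did not overlap, with a gap of 2.65 between the nearest members. A gap at least as large in this direction was found for 2 of 29133 probes, this one included (0.00687%). The split of the arrays, its direction and the size of the gap were taken from this probe's own values. That share is therefore a description and not a test. The named RNA was at 8.74, 7.63, 8.27 and 8.23 on the 10 and 300 ng/ml arrays, above every control value of the other 4 arrays. Of those 4 control values only that of the first Pax5sz2 array was well above background. The 1000 ng/ml arrays were also rehybridised slides from another scan batch. No direction is therefore drawn from this comparison of levels across arrays. Whether the control RNA of the 2 groups of arrays was the same preparation is not given in the sources used here.

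The second Mitf probe showed no such difference. A_51_P364274 (mm8 chr6:97983855-97983914, plus strand), 3′ of the first, had ratios between -0.11 and 0.10 on all 8 arrays. Its levels in both RNAs lay between 6.18 and 6.58, and it was not well above background in either RNA at 300 or 1000 ng/ml. A further probe for a partial Mitf cDNA, A_52_P176608, which carries another gene name in the files and was no member, lay within 0.10 of 0 on all 8 arrays and was well above background on 1 array in the named RNA and on none in the control. The ratio of Mitf at 10 and 300 ng/ml therefore rested on 1 probe.

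**Figure D4:**
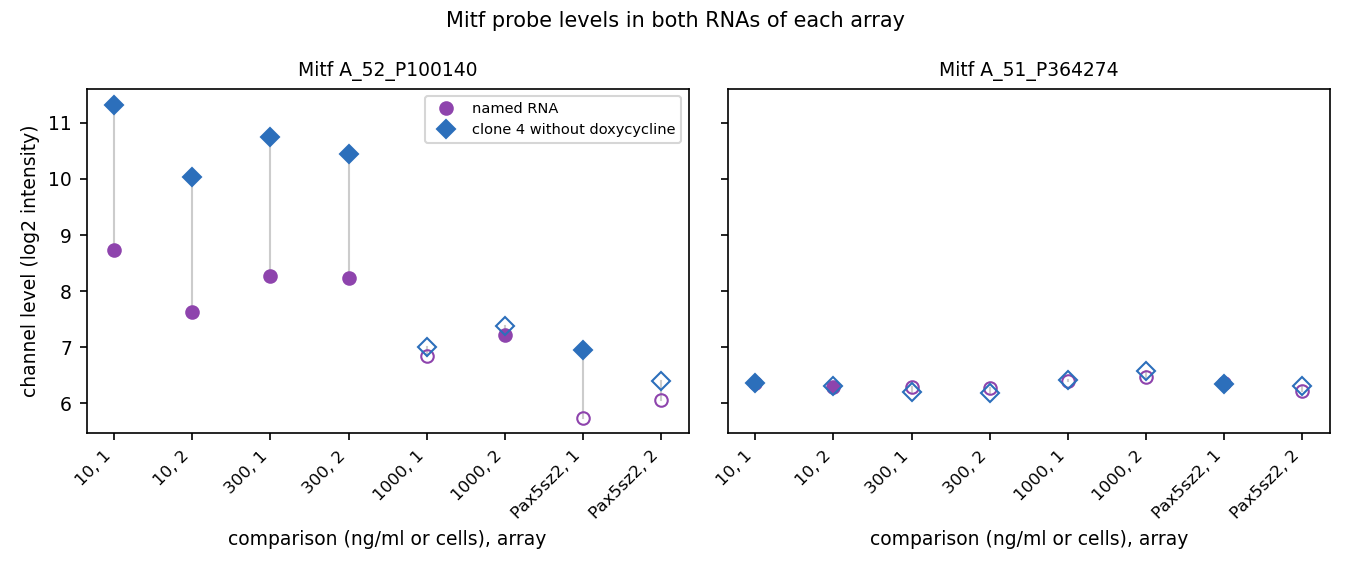
Channel level (log2 intensity) of the 2 Mitf probes in the named RNA (circles) and in clone 4 without doxycycline (diamonds) on each of the 8 arrays; open symbols are not well above background. For A_52_P100140 the 10 and 300 ng/ml arrays have control levels from 10.03 to 11.32 and the other 4 arrays from 6.40 to 7.38, and A_51_P364274 stays below 6.6 throughout.

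The most 3′ of the 3 annotated Mitf starts is shown because Mitf had the lowest ratios of the set. Both member probes are assigned to the same Mitf transcript, and use of the starts was not tested. The window of the most 3′ start, on the plus strand at chr6:97991533-97991782, held the palindrome TGACGTCA, beginning 153 bases before the start. That motif was found in 1.546% of windows. Of the other 2 Mitf windows, 1 held the C/EBP site TTGCNNAA (in 9.564% of windows) and 1 a CCAAT box. None of the 6 windows, that of Cebpa included, held GAGGAA (23.25% of windows), CACGTG (6.021%) or CATGTG (12.25%).
Mitf: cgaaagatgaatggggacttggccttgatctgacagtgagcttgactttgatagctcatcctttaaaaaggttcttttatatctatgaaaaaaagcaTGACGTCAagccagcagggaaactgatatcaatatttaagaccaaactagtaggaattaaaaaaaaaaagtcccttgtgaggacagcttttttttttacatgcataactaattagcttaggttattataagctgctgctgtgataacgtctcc

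Across doses, the mean doxycycline effect was tested with limma over the 3 dye-swap means, with the doses as replicates. No probe of 29136 passed an adjusted p of 0.05 (0% called). The smallest adjusted p was 0.688, and 1714 probes had an unadjusted p under 0.05, so no member passed. Among members Cebpd had the smallest p, with an estimate of 0.62 ± 0.098 (SE), limma adjusted p = 0.688, and it was higher on 6 of 6 arrays. Cebpb A_52_P63553 followed with 0.92 ± 0.24 (limma adjusted p = 0.688), higher on 5 of 6. With the 1000 ng/ml sign turned no probe passed either, with 0.109 the lowest adjusted p and 7298 probes under 0.05 before adjustment. Then Cebpg A_52_P121675, at 0.68 ± 0.058 (limma adjusted p = 0.12), the 5′ Cebpg probe, at 0.53 ± 0.10 (limma adjusted p = 0.122), and Spi1, at -0.52 ± 0.10 (limma adjusted p = 0.124), came nearest. Cebpd was at 0.33 ± 0.28 (limma adjusted p = 0.504).

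Within the later scan batch, which leaves the 10 and 300 ng/ml pairs, 4831 of 29213 probes passed, or 16.5%, of which 1851 rose and 2980 fell. Of the 11 member probes 4 passed by limma. Cebpd rose by 0.71 ± 0.074 (adjusted p = 0.0362) and the middle Cebpg probe by 0.70 ± 0.066 (adjusted p = 0.035). The 3′ Cebpg probe changed by -0.41 ± 0.060 (adjusted p = 0.0447) and Mitf A_52_P100140 by -2.42 ± 0.073 (adjusted p = 0.0348). Spi1 missed the threshold at -0.60 ± 0.11 (adjusted p = 0.0555), as did Cebpa A_52_P168567 at 0.35 ± 0.064 (adjusted p = 0.0571) and the 5′ Cebpg probe at 0.43 ± 0.078 (adjusted p = 0.0568). The Cebpb probes were at 0.93 ± 0.31 and 0.55 ± 0.31 (adjusted p = 0.137 and 0.291). This fit has 2 RNA samples, and its error leaves out the spread of the control RNA, which for the Mitf probe differed between arrays as given above.

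Pax5sz2 was set against the 3 doses in the same model, with the lone Pax5sz2 sample assumed to vary like the doses. No probe of 29133 passed (0% called), the lowest adjusted p being 0.115 and 2235 probes lying under 0.05 before adjustment. Cebpb A_52_P605846 was lower in Pax5sz2 than in treated clone 4 by a difference of -1.45 ± 0.48 (SE; limma adjusted p = 0.636), and A_52_P63553 by -1.36 ± 0.48 (limma adjusted p = 0.67). With the 1000 ng/ml sign turned these differences were -1.03 ± 0.73 and -0.76 ± 1.00 (limma adjusted p = 0.733 and 0.899). In that setting 21 probes passed (0.0721%), none of them a member. Without the 1000 ng/ml pair no probe passed, and the difference for Mitf A_52_P100140 was 1.64 ± 0.13 (SE). Its mean ratio in Pax5sz2, -0.78, was below 0, but less so than at 10 and 300 ng/ml (-2.49 and -2.35). The Pax5sz2 RNA was well above background on neither array for this probe. With processed signals and all 3 doses the difference was -1.896. The control level of that probe was the quantity that differed between these arrays.

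Genes that C/EBPα and PU.1 activate in granulocytes and macrophages were taken as a list of 25, of which 18 were tested. The shares of all tested probes past the size, given above, stand beside the counts of this and the following lists. At 10 ng/ml none of the 18 was past the size. At 300 ng/ml 4 were lower and at 1000 ng/ml, as labelled, 4 were higher, and these were Mpo, Ctsg, Cybb and Ncf1 both times. Ctsg, the cathepsin G protease of neutrophil granules, was at -2.98 ± 0.12 and 5.14 ± 0.19 in those comparisons, at 0.038 ± 0.37 at 10 ng/ml and at -1.68 ± 0.27 in Pax5sz2, where it alone of the list was past the size. Mpo, the granule peroxidase, was at -1.54 ± 0.065 and 1.19 ± 0.12 at 300 and 1000 ng/ml. Ncf1 and Cybb, subunits of the phagocyte oxidase, were at -1.84 ± 0.14 and -1.14 ± 0.017 at 300 ng/ml. The list's median was 0.027, -0.41, 0.27 and -0.028 in the order 10, 300 and 1000 ng/ml and Pax5sz2.

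Inflammatory genes that C/EBPβ and C/EBPδ regulate were a list of 14, of which 11 were tested. By the size rule 1 was higher at 10 ng/ml, 4 were higher at 300 ng/ml, 3 were lower at 1000 ng/ml as labelled, and in Pax5sz2 2 were higher and 1 lower. Il1rn, which encodes the interleukin 1 receptor antagonist, was at 1.31 ± 0.20, 1.22 ± 0.23, 0.0081 ± 0.15 and 1.08 ± 0.018. C3, the complement component, was at 0.30 ± 0.038, 1.48 ± 0.022, -2.03 ± 0.25 and 1.10 ± 0.013. Il6 was at 1.30 ± 0.22 and the chemokine gene Ccl2 at 1.51 ± 0.23 at 300 ng/ml. Ptgs2, the inducible cyclooxygenase, was the lower one in Pax5sz2, at -1.46 ± 0.29. The list's median was 0.47, 0.77, -0.15 and 0.024.

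Among possible zipper partners and relatives of the set (19 genes, all tested), 3 were higher at 10 ng/ml, 4 were higher at 300 ng/ml, 1 was higher and 2 lower at 1000 ng/ml, and 1 was higher and 3 lower in Pax5sz2. Fos and Jun, which form the AP-1 dimer, were at 2.09 ± 0.31 and 1.79 ± 0.051 at 10 ng/ml and at 1.42 ± 0.14 and 2.36 ± 0.24 at 300 ng/ml. Atf3, a stress-induced factor, was at 1.82 ± 0.19 and 2.28 ± 0.33 there and at -1.06 ± 0.20 in Pax5sz2. Trib1, whose product directs C/EBPα to degradation, was at 0.73 ± 0.048, 1.14 ± 0.042, -0.14 ± 0.22 and -1.22 ± 0.11. Nfil3 was at 2.26 ± 0.0043 at 1000 ng/ml as labelled and at -1.55 ± 0.14 in Pax5sz2. Most of the list was not past the size, and its median was -0.0047, 0.11, -0.11 and -0.20.

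Of 19 target genes of MITF 13 were tested, and Cpa3, the mast cell carboxypeptidase, was the one past the size, at -2.01 ± 0.11 at 300 ng/ml and at 1.68 ± 0.22 at 1000 ng/ml as labelled. At 10 ng/ml, where Mitf A_52_P100140 had its lowest ratio, none of the 13 was, and Cpa3 was at -0.89 ± 0.035. The median of the list was -0.025, 0.092, 0.0060 and -0.043.

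Of 26 other transcription factors of the choice between myeloid and B lineages 24 were tested. Egr1 and Bach2 had no mean ratio at 300 ng/ml. Past the size were 3 higher and 1 lower at 10 ng/ml, 3 higher and 2 lower at 300 ng/ml, 2 higher and 3 lower at 1000 ng/ml as labelled, and 1 higher and 2 lower in Pax5sz2. Id1, an inhibitor of helix-loop-helix factors, was at 1.79 ± 0.020, 1.57 ± 0.20, 0.036 ± 0.12 and 1.39 ± 0.028. Egr2 was at 1.25 ± 0.14 and 1.38 ± 0.026 at 10 and 300 ng/ml. Ikzf1, which encodes Ikaros, was at -1.45 ± 0.012 and -1.68 ± 0.90 there. Id2 was at -1.96 ± 0.97 at 300 and 1.72 ± 0.15 at 1000 ng/ml. The median of this list was 0.18, 0.071, 0.031 and 0.10.

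Markers of the feeder layer moved alongside Cebpb and Cebpd at some doses. Of 15 OP9 stromal markers, all tested, the size rule found 4 higher at 10 ng/ml, 7 at 300 ng/ml, none at 1000 ng/ml and 3 in Pax5sz2. Of all tested probes 0.503%, 1.1%, 1.63% and 1.89% were higher. The stromal medians were 0.81, 1.00, -0.12 and 0.71. Col1a2 had no mean ratio at 300 ng/ml and is left out of that median and, where its spot was dropped, of the summed level. The log2 of the stromal markers' summed level at 10 ng/ml was 15.27 and 15.47 in the named RNA and 14.26 and 14.38 in the control. At 300 ng/ml it was 15.33 and 15.68 against 13.79 and 14.32. In Pax5sz2 it was 15.21 and 15.26 against 14.39 and 14.43, and at 1000 ng/ml 14.52 and 14.24 against 14.55 and 14.31. Of 8 adipocyte markers 7 were tested, and their medians were 0.66, 0.49, 0.019 and 0.96. Fabp4, an adipocyte lipid carrier, was at 1.39 ± 0.16, 1.48 ± 0.22, -0.13 ± 0.21 and 1.83 ± 0.28. At 10 ng/ml Cebpb A_52_P63553 and Cebpd were at 1.45 and 0.79, and both list medians were above 0. In Pax5sz2 both list medians were above 0, Cebpd was at 0.59 and Cebpb A_52_P63553 at -0.44. At 1000 ng/ml as labelled Cebpb A_52_P63553 and Cebpd were at 0.91 and 0.43, where the stromal median was below 0. The direction of that pair is not settled. OP9 cells are able to form adipocytes, and the part of feeder RNA in the C/EBP ratios was not tested.

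**Figure D5:**
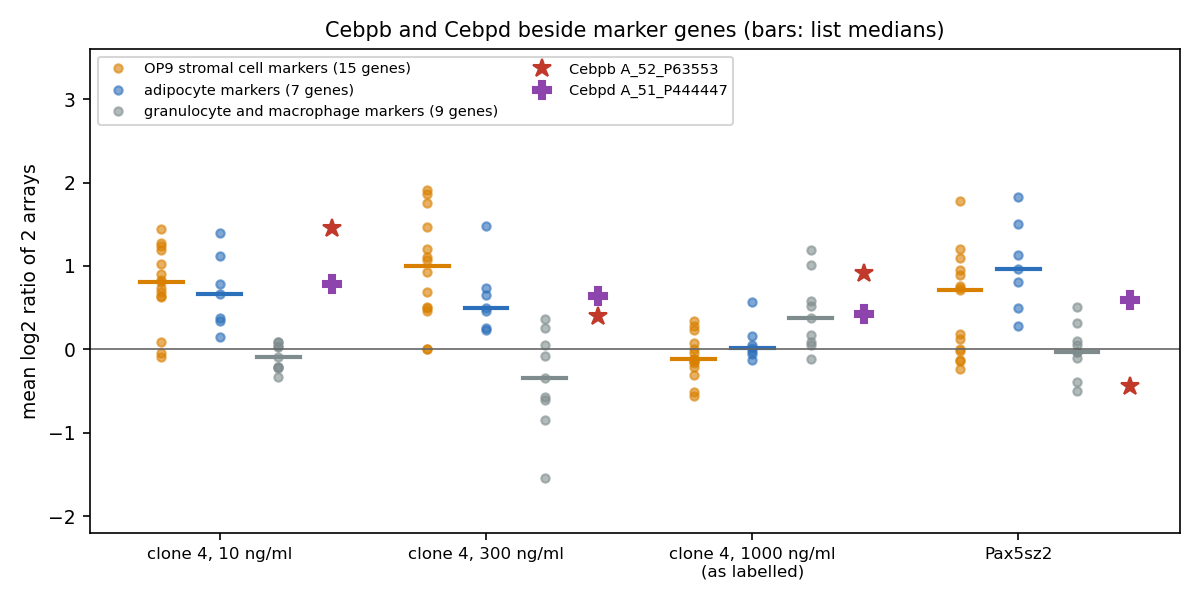
Mean log2 ratio (2 arrays) of marker genes of OP9 stromal cells, adipocytes, and granulocytes and macrophages (points, with bars at list medians) beside Cebpb A_52_P63553 (stars) and Cebpd A_51_P444447 (crosses) in the 4 comparisons. Stromal medians are 0.81, 1.00, -0.12 and 0.71, and the Cebpb star is at -0.44 in Pax5sz2.

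Other cell types were checked in the same way. Of 12 granulocyte and macrophage markers 9 were tested, and Mpo alone was past the size, lower at 300 and higher at 1000 ng/ml. Csf3r, S100a8 and S100a9, defining genes of neutrophils, were the untested ones and were well above background on no array. All 9 tested markers were well above background in each RNA of the Pax5sz2 comparison, and likewise of the 10 ng/ml comparison. For 300 ng/ml this held for 7 in the control and 8 in the named RNA. For 1000 ng/ml it held for 1 and 3. Lyz2 was well above background in both RNAs on all 8 arrays. The log2 of this list's summed level lay between 11.06 and 12.08 in both RNAs on all arrays. Of 6 mast cell markers Cpa3 was past the size, as given above, and of 6 T cell markers none was. The labelled cell type showed in part of its markers. Of 11 pro-B markers 8 to 11 were well above background in each RNA of each comparison. Vpreb1 and Igll1, the surrogate light chain genes, were well above background in the control on 3 of 8 arrays and were at 7.88 ± 0.94 and 5.65 ± 0.44 in Pax5sz2. Dntt, which encodes the terminal transferase, and Ebf1, a B-lineage transcription factor, were lower in Pax5sz2, at -4.89 ± 0.32 and -1.58 ± 0.33, and the median of the 11 genes there was -0.35. Blnk, a B cell adaptor gene that depends on Pax5, was at 2.62 ± 0.12 at 300 ng/ml, at -4.20 ± 0.27 at 1000 ng/ml as labelled, at -0.90 ± 0.13 at 10 ng/ml and at -3.41 ± 0.030 in Pax5sz2.

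For the 3 member probes past the size in any comparison, the named genes with the smallest Euclidean distance over the 8 ratios were found among 14569 genes. Cebpb A_52_P63553 had no close neighbour: Ptn, Tubb6 and Ckap4 lay at distances of 1.57, 1.59 and 1.61. Ckap4, the one nearest in size at 10 ng/ml, was at 1.49 there and at 0.66 in Pax5sz2, where Cebpb was below 0. Cebpg A_52_P121675 had Mettl16, Parpbp and Eif3j1 at 0.40, 0.41 and 0.44, each above 0 at 10 and 300 ng/ml and in Pax5sz2 and below 0 at 1000 ng/ml. Mitf A_52_P100140 had Afap1 at 0.44, then Nat3 and Pinx1 at 1.30 and 1.33. Afap1 was at -2.32, -2.11, -0.23 and -0.79. Its control level, like that of the Mitf probe, was higher on the 10 and 300 ng/ml arrays (9.93 to 11.20) than on the 1000 ng/ml and Pax5sz2 arrays (6.70 to 7.85). The control levels of Nat3 (8.52 to 10.07 against 6.01 to 6.74) and Pinx1 (14.72 to 15.55 against 12.70 to 13.47) split in the same way. The neighbours were chosen by ratios that contain the control level. Their shared split is therefore a description and not a test.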

How the data were processed

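The 8 arrays are two-colour Agilent mouse expression arrays. Per the labels' protocols, TRIzol RNA was labelled with Cy3 and Cy5 and each RNA pair was hybridised again with dyes swapped. Agilent Feature Extraction is named in the submitters' processing notes, and its version is 10.5.1.1, per the file headers. Scanner files, as deposited, give unnormalized mean and background intensity values, and processed intensity values after dye normalization. The deposited series matrix holds log10 ratios, tested to equal the scanner log10 ratio turned towards the named RNA within 5e-06.

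Intensities were background-corrected with normexp (offset 50) and normalized by loess within arrays in R 4.3.3 with limma 3.58.1 (the data.table package 1.17.8), and channel levels were then scaled with Aquantile. Control spots had weight 0, no spot was saturated, and the 37 to 295 outlier spots of each array were dropped. Technical arrays were averaged to 1 sample. limma tests were two-sided with Benjamini-Hochberg adjustment over all tested probes. The number of arrays limits the precision, and p-values measure only the spread between doses. Figures used Python 3.11.15 and matplotlib 3.10.9. Probe coordinates (mm8) are the files' own, and start windows come from RefSeq (GRCm38.p6). Each list gene was represented by its brightest probe.

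Named genes were all member probes, Pax5, the 3 nearest genes of members past the size, and list members past the size. The members and lists were chosen with earlier results of these data known; levels named without being past the size, and the gaps between arrays, were chosen after values were seen. The size rule and both tests were also run on simulated data. The outcome is not given here, and nothing is drawn from it on what the tests could detect. Alternatives were other scalings, filters, a size of 0.5, left-out arrays, and the 1000 ng/ml pair turned or left out.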

Additional observations from a re-analysis of the deposited data

Results flagged for a closer look

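Both arrays of one comparison lay at least 0.5 (log2) above the control and both arrays of another at least 0.5 below it for 2 member probes. Cebpb A_52_P605846 differed by 1.95 between 10 ng/ml and Pax5sz2. The model that set Pax5sz2 against all 3 doses did not call it (limma adjusted p = 0.636), and the difference between these 2 comparisons alone was not tested. Cebpg A_52_P121675 differed by 1.83 between Pax5sz2 and 1000 ng/ml as labelled. That difference was not tested, and with the 1000 ng/ml sign turned both comparisons lie above 0.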

How the results depend on the processing

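The count of member probes past the size went from 2 to 1 at 10 ng/ml and from 1 to 0 at 300 ng/ml when probes had to be well above background in both RNAs on all arrays, a filter that removes the Mitf probe. With a size of 0.5, chosen after seeing the data, the counts were 5, 4, 3 and 4 in the order 10, 300 and 1000 ng/ml and Pax5sz2. With processed signals or series matrix ratios the Pax5sz2 count was 4 in place of 1. The added probes, all lower, were Cebpb A_52_P605846, Cebpg A_51_P521216 and Mitf A_52_P100140. The share over all tested probes was not counted at a size of 0.5 or under these scalings. These counts are therefore not read as a result about the members. Leaving out 1 array gave 2 to 3 at 10 ng/ml, 1 to 2 at 300 ng/ml, 0 to 0 at 1000 ng/ml and 1 to 2 in Pax5sz2. Both tests had 0 to 0 calls when 1 array was left out. Without the 1000 ng/ml pair 4831 probes passed the mean doxycycline effect, and with its sign turned 21 passed the Pax5sz2 difference.

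Of the estimates for single probes 343 kept their direction and their side of the threshold, 4 newly passed it and 19 reversed. None of the reversed ones passed the threshold as labelled, and the cause was not tested. The mean doxycycline effect reversed for the second Mitf probe, A_51_P364274 (-0.019 with median centring; without 1 array of 1000 ng/ml from -0.00449 to 0.0284), and for Cebpg A_52_P438082 (-0.17 with processed signals and with series matrix ratios; without 1 array of 300 ng/ml from -0.0402 to 0.112). The Pax5sz2 difference reversed for Cebpa A_52_P168567 (0.0798 with median centring, 0.0603 with the 1000 ng/ml sign turned, 0.013 without 1000 ng/ml replicate 1, and from -0.102 to 0.055 without 1 array of Pax5sz2) and A_51_P214087 (from -0.139 to 0.0498 without 1 array of Pax5sz2). It reversed for Cebpd (0.22 with median centring, 0.0396 with processed signals and series matrix ratios, 0.26 with the sign turned). It reversed for Cebpg A_52_P438082 (-0.30 with the sign turned, -0.20 without the 1000 ng/ml pair). For Mitf A_52_P100140 it was -1.896 with processed signals and series matrix ratios, and for A_51_P364274 from -0.0895 to 0.0026 without 1 array of Pax5sz2.

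No paired analysis was possible because the labels give no replicate numbers and the 2 arrays of a comparison are technical. Signal over background limited both Cebpa and both Mitf probes at 1000 ng/ml, where at most 1 array of an RNA was well above it.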
